A study of Mus musculus with 18 samples.

Results

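Livers of TCDD-treated mice that lack the aryl hydrocarbon receptor (AHR) in hepatocytes were compared with livers of treated mice that keep it. The comparison was chosen by group label: the 3 libraries labelled dHep_TCDD (mice 4, 10 and 16) against the 3 labelled WT_TCDD (mice 2, 8 and 14), 6 of the 18 libraries of the series. All 14835 genes with enough counts were tested. The mice were female C57BL/6. WT stands for the floxed control mice, labelled AhRfl/fl, whose Ahr gene carries the sites for removal but is intact, and dHep for AhRΔHep mice, in which Ahr is removed in hepatocytes. The Cre driver and the exon removed are not given in the sources used here, and other liver cells of dHep mice keep the gene. TCDD, a dioxin, was given by gavage at 100 µg/kg every 4 days in peanut oil, and livers were taken after 92 days. WT and dHep mice given peanut oil alone, 3 of each, serve as background. Another genotype, dHSC, with AHR removed in hepatic stellate cells, is used for 1 further readout, as 3 TCDD and 3 vehicle livers. The title of the series asks whether TCDD activates liver myofibroblasts through AHR signalling in hepatocytes.

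AHR is a transcription factor that waits in the cytoplasm bound to chaperones. When it binds a ligand such as TCDD it moves to the nucleus, pairs with ARNT and binds DNA at response elements built on a short core, GCGTG. Its best known targets are the CYP1 cytochromes, which oxidise many of its ligands, and AHRR and TIPARP, which damp the receptor in return. TCDD is broken down so slowly that the receptor stays engaged, and long exposure in rodents is known for fatty, inflamed and scarred liver and for wasting.

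The promoters of 4 AHR target genes that were lower in dHep livers are shown here as background to their values, with the core in capitals. Each is the stretch of 250 bases before the annotated start, taken from RefSeq on GRCm38.p6 and written 5′ to 3′ in the direction of the gene. Capitals GCGTG mark the core on the gene's own strand and CACGC mark it on the other strand.
Cyp1a1 promoter, chr9:57697363-57697612, plus strand: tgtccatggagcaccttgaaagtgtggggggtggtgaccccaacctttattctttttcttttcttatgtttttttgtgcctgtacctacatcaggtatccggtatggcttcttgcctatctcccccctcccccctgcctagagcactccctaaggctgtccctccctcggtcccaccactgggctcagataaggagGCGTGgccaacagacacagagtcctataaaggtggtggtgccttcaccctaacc
Cyp1b1 promoter, chr17:79715062-79715311, minus strand: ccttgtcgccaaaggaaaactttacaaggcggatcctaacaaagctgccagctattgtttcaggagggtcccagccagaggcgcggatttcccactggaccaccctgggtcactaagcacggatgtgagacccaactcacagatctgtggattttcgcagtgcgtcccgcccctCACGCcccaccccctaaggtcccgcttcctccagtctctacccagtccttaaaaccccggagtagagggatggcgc
Ahrr promoter, chr13:74292332-74292581, minus strand: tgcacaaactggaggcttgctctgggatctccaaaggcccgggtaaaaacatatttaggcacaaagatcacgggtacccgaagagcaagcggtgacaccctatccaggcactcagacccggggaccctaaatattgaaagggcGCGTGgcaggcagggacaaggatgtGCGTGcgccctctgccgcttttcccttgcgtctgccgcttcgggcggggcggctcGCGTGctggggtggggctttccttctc
Tiparp promoter, chr3:65528197-65528446, plus strand: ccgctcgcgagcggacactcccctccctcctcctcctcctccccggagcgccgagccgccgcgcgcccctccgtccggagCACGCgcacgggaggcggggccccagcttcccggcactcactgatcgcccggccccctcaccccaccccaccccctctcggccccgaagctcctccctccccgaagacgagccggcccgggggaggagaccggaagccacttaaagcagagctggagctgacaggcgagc
Cyp1a1 held 1 core, starting 54 bases before the start, Cyp1b1 held 1 at 76 bases on the other strand, and Tiparp held 1 at 170 bases on the other strand. Ahrr held 3, at 107, 82 and 27 bases. Cyp1a2, Nqo1 and Gsta1, the AHR targets called lower in dHep livers that are not shown, held none in this window. The core is short and common. It was present on either strand in 28.2% of 27025 RefSeq promoters of this length and in 42.9% of the 10871 tested genes that matched a promoter by symbol. Among genes called lower in dHep it was in 47 of 121 with a promoter (38.8%), and among genes called higher in 24 of 80 (30.0%). The match is a description of letters and not of binding.

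Each library is 1 mouse, so p-values set differences between groups against the spread between mice within groups, estimated over all 18 libraries. Total counts of the 6 treated libraries ran from 15313279 to 22133677. Across the series 5 libraries stood apart (dHep vehicle 9 and 15, dHep TCDD 16, dHSC vehicle 17 and dHSC TCDD 18), with 2.20% to 4.25% of their counts outside protein-coding genes against at most 1.76% in the others. Only dHep TCDD 16 is in the groups compared. The others enter through the filter and the estimate of spread, which all 18 libraries share. Library dHep TCDD 16 also held 9.85% of its counts in mitochondrially encoded genes, against at most 6.45% in the other 5 libraries compared. Results that rest on it are given without it as well. WT vehicle 1 carried skeletal muscle RNA, with the muscle list summing to 1791 CPM (read counts scaled to library size, with TMM factors) against at most 3.75 in the other 5 vehicle livers. Ahr itself (ENSMUSG00000019256, chromosome 12, 35497974 to 35535038) was at 94.9, 60.8 and 29.0 CPM in dHep TCDD 4, 10 and 16 and at 56.6, 53.4 and 44.6 CPM in WT TCDD 2, 8 and 14. The groups overlapped, and edgeR's quasi-likelihood test did not call it (log2 difference 0.26 ± 0.43 SE). The counts cover every exon of Ahr, those left in place included, and so do not test the deletion. Of the hepatocyte markers, some were abundant and some were nearly absent from the counts. Albumin (Alb) was at 37247 to 73197 CPM in WT TCDD and 58997 to 76797 in dHep TCDD, and Hnf4a, which encodes a transcription factor of hepatocytes, was at 649.9 to 699.9 CPM and 600.3 to 1046 CPM. Trf had only 5 counts over the WT TCDD livers and 3 over the dHep TCDD livers, and Hpd had no count in any library. The reason for these low counts was not tested. In bulk liver, fewer cells of a type and less RNA per cell cannot be told apart.

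Under TCDD the livers without hepatocyte AHR differed from WT livers at 288 of 14835 genes (1.94%). Of these 122 (0.822%) were higher in dHep and 166 (1.12%) lower, by edgeR's quasi-likelihood test at an adjusted p under 0.05. The median log2 difference was 2.32 among genes called higher and -2.78 among genes called lower, against -0.03 over all genes tested. Called genes were chosen for their difference, so these medians describe them and are no test. On simulated counts the test called few genes changed by 2-fold, so smaller differences are largely missing from the calls. Among genes called lower 51 differed by more than 4 on the log2 scale, and 12 had no count in any dHep TCDD library. All 288 had groups that did not overlap, which held for 16.3% of all genes tested. The count depended on each mouse. Without WT TCDD 14 it was 159, without WT TCDD 2 it was 164, without dHep TCDD 4 it was 168, without dHep TCDD 10 it was 173, and without dHep TCDD 16 it was 189. Called in all 6 fits that left out 1 treated library were 49 of the genes higher in dHep and 69 of those lower.

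**Figure D1:**
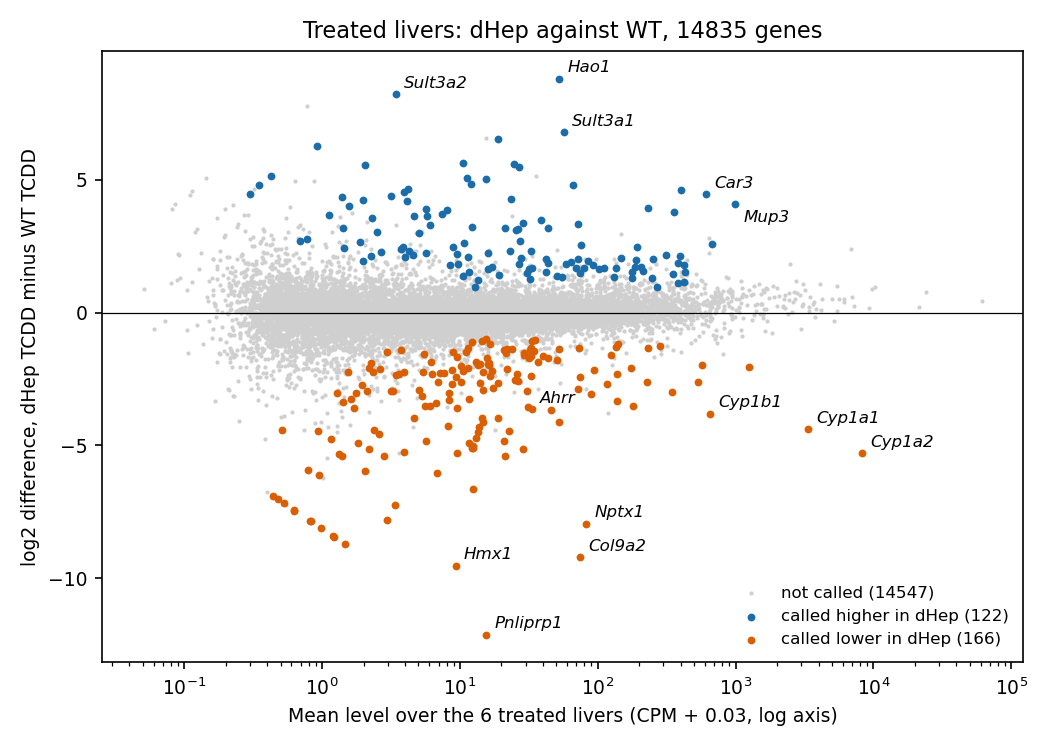
Each of the 14835 genes tested is a point, with its mean level over the 6 treated livers on the x axis (CPM plus 0.03, log axis) and the log2 difference of dHep TCDD minus WT TCDD on the y axis. Genes called higher in dHep (122) and lower (166) are coloured, and Hao1 and Pnliprp1 lie at the 2 extremes.

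The AHR target genes that were called all differed in the same direction. Of 14 genes listed as AHR targets 12 were tested, 7 were lower in dHep TCDD than in WT TCDD (58.3%, against 1.12% of all genes) and none was higher, and the median log2 difference was -2.31. The other 2, Ugt1a6a and Ugt1a6b, had no count in any of the 18 libraries. They share exons with other Ugt1a genes. Without dHep TCDD 16 the count was 6, Gsta1 being lost. The list was written with earlier results of these data known.

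The CYP1 family showed the steepest differences of the list. Cyp1a2 (ENSMUSG00000032310, chromosome 9, 57676937 to 57683703), the main constitutive CYP1 enzyme of liver, was at 14202, 20113 and 13876 CPM in WT TCDD 2, 8 and 14 and at 284, 513 and 447 CPM in dHep TCDD 4, 10 and 16. It was 38.8-fold lower in dHep (log2 difference -5.28 ± 0.62, adjusted p = 0.000251), and the dHep TCDD livers lay within the range of the 6 vehicle livers, 256 to 1841 CPM. Of these, dHep vehicle livers were at 256 to 473 CPM and WT vehicle livers at 260 to 1841 CPM. Cyp1a1 (ENSMUSG00000032315, chromosome 9, 57687928 to 57703824), the most strongly inducible CYP1 enzyme, was at 5873, 8328 and 5089.6 CPM in WT TCDD and at 304, 283 and 334 CPM in dHep TCDD. The difference was 20.9-fold (log2 -4.39 ± 0.76, adjusted p = 0.00453). All 3 dHep TCDD livers were nonetheless above every vehicle liver, of which the highest was at 86.9 CPM. Cyp1b1 (ENSMUSG00000024087, chromosome 17, 79701537 to 79715061), the CYP1 enzyme better known from tissues outside the liver, was at 1397, 1037 and 1223 CPM in WT TCDD and 101, 89.6 and 71.9 CPM in dHep TCDD. It was 13.9-fold lower (log2 -3.80 ± 0.59, adjusted p = 0.00211), and again every dHep TCDD liver exceeded every vehicle liver, which reached at most 21.2 CPM.

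The feedback genes behaved alike. Ahrr (ENSMUSG00000021575, chromosome 13, 74211118 to 74292331), which encodes the AHR repressor, was at 61.2, 63.0 and 60.6 CPM in WT TCDD and 6.15, 4.33 and 4.42 CPM in dHep TCDD. Its log2 difference was -3.63 ± 0.49 (adjusted p = 0.000756), and vehicle livers reached at most 2.14 CPM, below all dHep TCDD livers. Tiparp (ENSMUSG00000034640, chromosome 3, 65528410 to 65555518), which encodes an ADP-ribosyltransferase that marks AHR for degradation, was at 132, 70.1 and 176 CPM in WT TCDD and 14.2, 18.2 and 19.6 CPM in dHep TCDD (log2 -2.86 ± 0.35, adjusted p = 0.000331). The lowest dHep TCDD liver was just above the highest vehicle liver, at 13.2 CPM. For both genes all treated WT livers were high and all treated dHep livers low.

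The other called targets are detoxifying enzymes. Nqo1 (ENSMUSG00000003849, chromosome 8, 107388225 to 107403206), a quinone reductase, was at 131, 148 and 98.6 CPM in WT TCDD and 21.3, 26.4 and 23.2 CPM in dHep TCDD (log2 -2.41 ± 0.33, adjusted p = 0.000756), the latter inside the vehicle range of 15.1 to 24.8 CPM at 2 of 3 livers. Gsta1, a glutathione transferase, was at 20.1, 38.3 and 25.5 CPM against 6.66, 6.15 and 5.38 CPM (log2 -2.20 ± 0.47, adjusted p = 0.0205). Its call was lost in 5 of the 6 fits that left out 1 treated library, with adjusted p from 0.0536 to 0.103 in those, and held only without WT TCDD 2. Xdh (log2 -1.02, adjusted p = 0.226) and Lpcat2 (log2 -0.97, adjusted p = 0.424) were not called, although their groups did not overlap. Gsta2 (-0.02), Aldh3a1 (-0.51) and Cyp2s1 (0.15) were not called either, and all 3 changed sign without WT TCDD 8. None of 9 tested partners of AHR, such as Arnt, was called by edgeR or DESeq2, and 1 had an unadjusted p under 0.05.

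**Figure D2:**
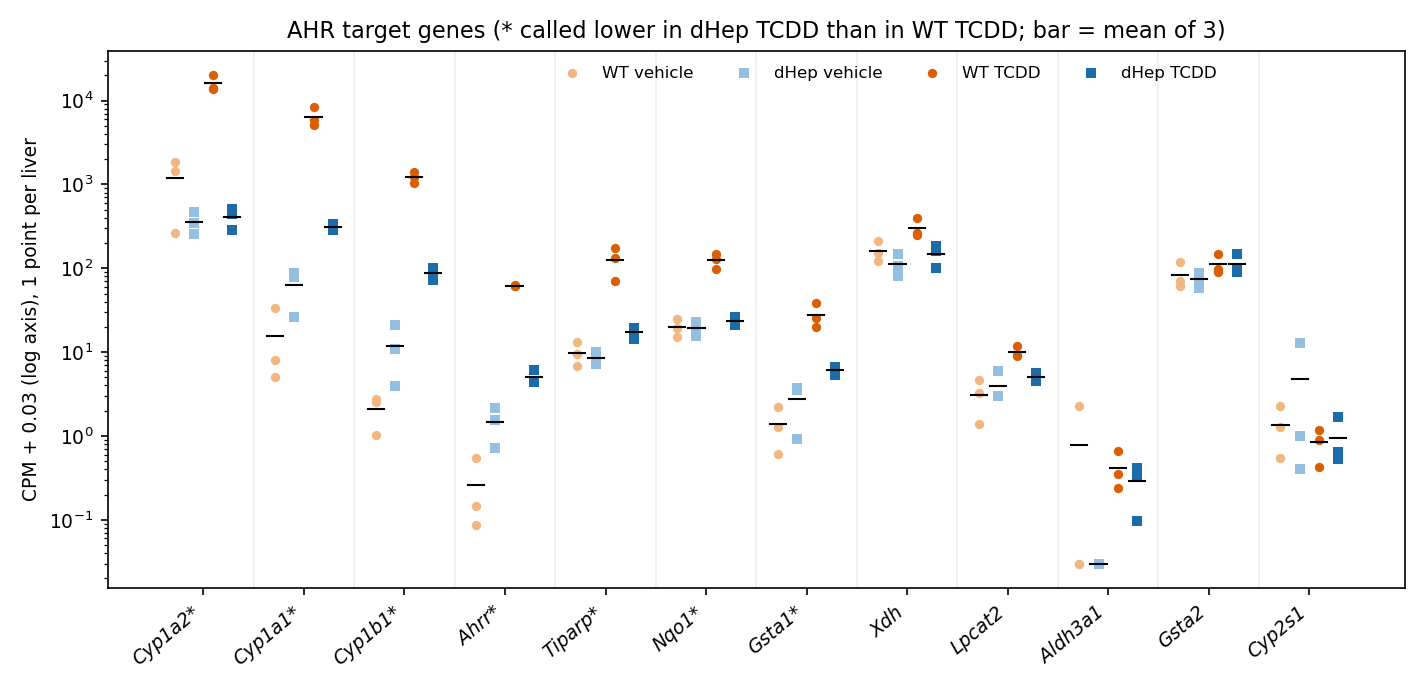
Levels of the 12 tested AHR targets are shown in CPM plus 0.03 on a log axis, 1 point per liver in the 4 WT and dHep groups with a bar at the mean of 3, and an asterisk marks the 7 genes called lower in dHep TCDD. Cyp1a1, Cyp1b1 and Ahrr in dHep TCDD lie between the vehicle livers and the WT TCDD livers.

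The largest differences in the lower direction were in genes with little RNA in the 6 vehicle livers, at most 3.81 CPM in any, and several are better known from other organs. Pnliprp1 (ENSMUSG00000042179, chromosome 19, 58728887 to 58744169), a relative of pancreatic lipase, was at 26.9, 44.0 and 21.9 CPM in WT TCDD and had no count in the 3 dHep TCDD livers. It was at least 532-fold lower in dHep, taking 3 counts over the group as the floor (adjusted p = 4.86e-05). Hmx1, a homeobox transcription factor (ENSMUSG00000067438, chromosome 5, 35389108 to 35399730), had 1104 counts over the WT TCDD livers and 1 over the dHep TCDD livers, a ratio of 933 (95% counting interval 167 to 36883, adjusted p = 4.86e-05). Other genes cover 15.96% of its span, and reads there may be lost. Pancreatic enzyme genes other than Pnliprp1 were near 0, with no count of Pnlip, at most 2 counts of Cpa1 or Cela3b and at most 6 of Ctrb1 over the treated livers of either group.

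Col9a2 (ENSMUSG00000028626, chromosome 4, 121039385 to 121055322), a chain of the cartilage collagen IX, was at 138, 191 and 118 CPM in WT TCDD and 0.216, 0.126 and 0.408 CPM in dHep TCDD. Its log2 difference was -9.21 ± 0.71 (adjusted p = 1.07e-05), the smallest adjusted p among the named genes. Nptx1 (ENSMUSG00000025582, chromosome 11, 119538719 to 119547753), a pentraxin secreted by neurons, was at 237, 129 and 124 CPM against 0.433, 0.753 and 0.817 CPM (log2 -7.95 ± 0.71, adjusted p = 2.01e-05). For both genes the dHep TCDD livers were as low as vehicle livers, which reached at most 0.833 CPM for Col9a2 and 1.13 CPM for Nptx1.

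The others among the 15 largest in this direction had WT TCDD means from 2.33 CPM (Ecel1) to 41.6 CPM (Gipc2, a PDZ-domain scaffold protein). Gipc2 differed by -5.41 ± 0.78 on the log2 scale, Insl6, a relaxin-family peptide, by -6.04 ± 0.74, and Amn, a partner of the vitamin B12 receptor cubilin, by -6.64 ± 0.84. Cd163l1, a scavenger receptor, differed by -5.40 ± 0.95. Ovol1, a zinc finger factor of epithelia, had 377 counts against 1 (ratio 319, interval 56.8 to 12617), and Slc6a19, a transporter of neutral amino acids, had 164 against 3 (ratio 46.2, interval 15.5 to 226). These 6 genes and the 4 above them were called in every fit that left out 1 treated library. The remaining 5 were not. Cdh22 was called only without WT TCDD 8, Ecel1 only without WT TCDD 8 or dHep TCDD 16, and Adra2a only without WT TCDD 2 or 8. Duoxa1 and Tgm3 lost their call in all 6 such fits, with adjusted p from 0.0503 to 0.0912 and from 0.0536 to 0.146.

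The largest difference in the higher direction was in Hao1 (ENSMUSG00000027261, chromosome 2, 134497361 to 134554368), the peroxisomal enzyme that oxidises glycolate to glyoxylate. It was at 0.412, 0.285 and 0 CPM in WT TCDD 2, 8 and 14 and at 88.1, 140.1 and 86.5 CPM in dHep TCDD 4, 10 and 16, a log2 difference of 8.82 ± 0.76 (adjusted p = 1.69e-05). The dHep TCDD livers lay within the range of vehicle livers, 60.6 to 208 CPM, and the WT TCDD livers were close to 0. Of 10 tested genes of glyoxylate and peroxisomal oxidation Hao1 alone was called.

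Sulfotransferases, which add sulfate to steroids, bile acids and drugs, supplied 3 of the 15 largest. Sult3a1 was at 1.37, 0.911 and 0.703 CPM in WT TCDD and 115, 157 and 66.0 CPM in dHep TCDD (log2 6.81 ± 1.21, adjusted p = 0.00536). Sult3a2, its neighbour on chromosome 10, had 407 counts over the dHep TCDD livers against 1 over the WT TCDD livers, a ratio of 482 (interval 86.0 to 19069, adjusted p = 0.00388). Sult2a7 was at 41.2, 89.8 and 14.6 CPM in dHep TCDD and at most 1.37 CPM in WT TCDD (log2 5.60 ± 0.77, adjusted p = 0.000921). The dHep TCDD levels of Sult3a1, Sult3a2 and Sult2a7 reached below the lowest vehicle livers, at 113, 6.13 and 67.1 CPM, and all their WT TCDD livers were lower still. Sult2a8, next to Sult2a7 on chromosome 7, was at 266, 606 and 427 CPM against 23.9, 36.2 and 23.7 CPM (log2 3.95 ± 0.41, adjusted p = 6.56e-05). Its levels in dHep TCDD 4 and 16 were also below the lowest vehicle liver, at 459 CPM. In all 6 of 15 tested sulfotransferases were higher in dHep (0.822% of all genes were) and none lower, with Sult1a1 (log2 1.87) and Sult1c2 (2.17) completing the 6, while the median of the list was 0.05 beside -0.03 over all genes. Sult1c2, named after its values were seen, was called in 1 of the 6 fits with 1 library left out and not without dHep TCDD 16 (adjusted p = 0.126). Genes of the Sult2a and Sult3a clusters are near copies of each other, so reads may be divided among them in error.

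The rest of the 15 largest are of mixed function. Car3 (ENSMUSG00000027559, chromosome 3, 14863512 to 14872523), an abundant carbonic anhydrase of liver, fat and muscle, was at 68.4, 32.6 and 57.6 CPM in WT TCDD and 889, 1506 and 1132 CPM in dHep TCDD (log2 4.47 ± 0.53, adjusted p = 0.000253). Cyp2c69, a female-biased cytochrome, was at 40.9, 41.0 and 12.9 CPM against 956, 832 and 547 CPM (log2 4.62 ± 0.69, adjusted p = 0.00165). Serpina7, the thyroxine-binding globulin, was at 6.87, 3.76 and 3.22 CPM against 222, 43.2 and 121 CPM (log2 4.80 ± 0.69, adjusted p = 0.0013). In each the 3 dHep TCDD livers were far above the 3 WT TCDD livers. Mmd2 (log2 5.62), Ube2u (5.57), Ntrk2 (5.03), which encodes the receptor of BDNF, Dsg1c (4.84), a desmoglein, Susd4 (4.67), a complement inhibitor, and Nxph1 (4.55) were called in all 6 fits with 1 library left out. Ptgds, a prostaglandin D synthase (log2 5.07 ± 1.24, adjusted p = 0.0468), lost its call in all 6 such fits, at 0.0758 to 0.239, and the adrenergic receptor gene Adrb3 (4.34 ± 0.96, adjusted p = 0.0243) in 5, at 0.0596 to 0.117, keeping it only without dHep TCDD 4. Other genes cover 46.9% of the span of Adrb3 and 10.4% of that of Ntrk2.

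**Figure D3:**
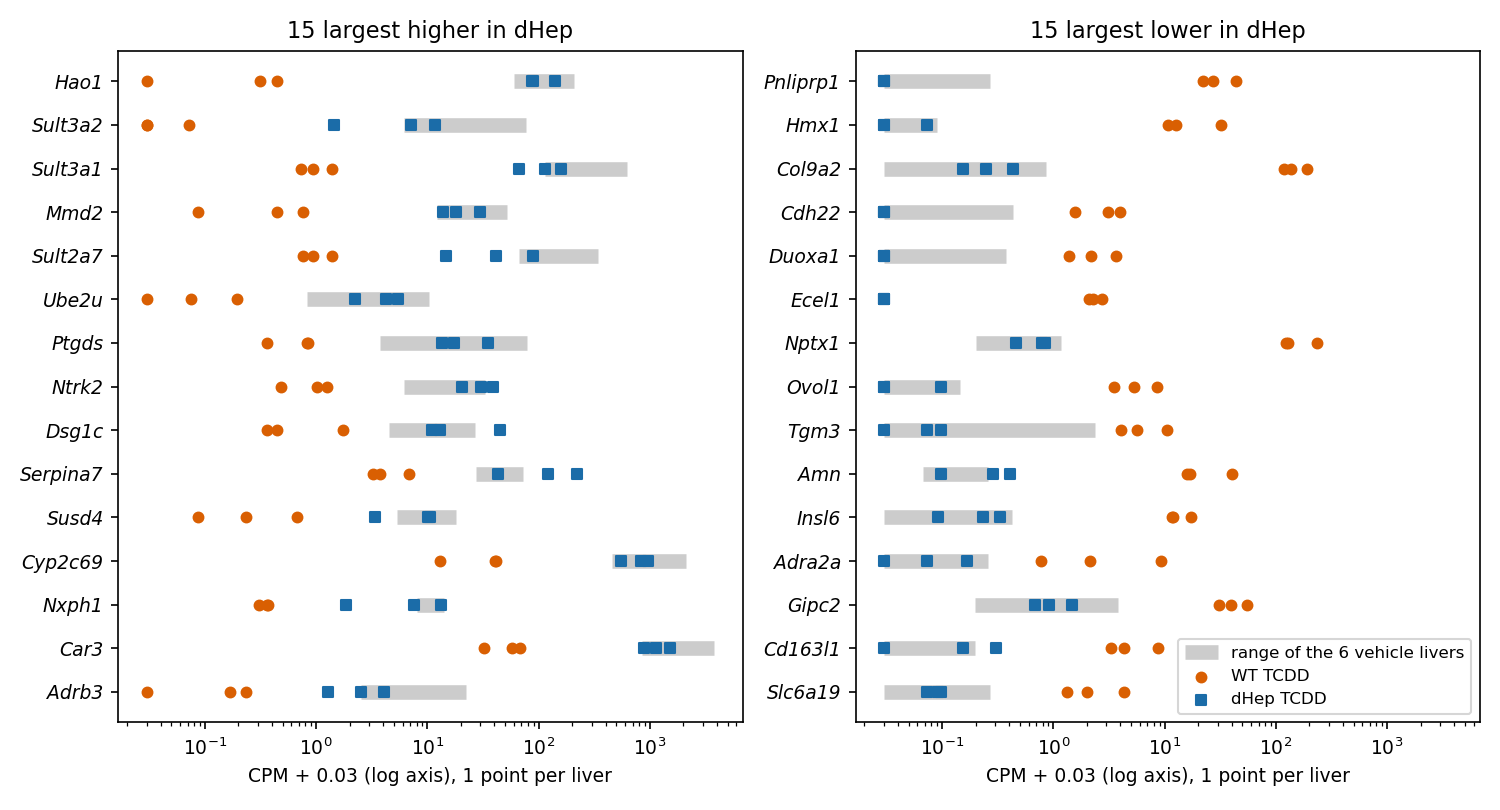
Levels of the 15 named genes with the largest differences in each direction are shown in CPM plus 0.03 (log axis), 1 point per treated liver, over grey bars for the range of the 6 vehicle livers. WT TCDD livers lie away from the grey bars and most dHep TCDD livers lie on or near them.

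Further counts were made over gene lists, to be read against the 0.822% of all genes called higher and the 1.12% called lower. Of 7 tested carbonic anhydrases, which interconvert carbon dioxide and bicarbonate, 4 were higher in dHep and none lower, with a median log2 difference of 1.79. Besides Car3 these were Car1 (log2 4.21 ± 0.54, adjusted p = 0.000525), its neighbour on chromosome 3, Car14 (2.62 ± 0.43, adjusted p = 0.00312) and Car8 (1.79 ± 0.32, adjusted p = 0.00536). Car2 went the other way without being called, at 104, 91.9 and 62.2 CPM in WT TCDD and 27.3, 28.2 and 12.7 CPM in dHep TCDD (log2 -1.92, adjusted p = 0.0775). Each of the 4 called was also called without dHep TCDD 16.

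Female-biased liver genes, those usually higher in livers of females, had 5 of 22 called higher in dHep (0.822% of all genes were) and none lower, with a median of 1.40. The 5 are Sult3a1, Sult3a2, Sult2a7 and Cyp2c69, given above, and Cyp17a1, a steroid hydroxylase, at 26.1, 29.1 and 22.6 CPM in WT TCDD and 116, 79.3 and 79.7 CPM in dHep TCDD (log2 1.82 ± 0.35, adjusted p = 0.00874), called in 3 of the 6 fits with 1 library left out. Of 14 male-biased genes Selenbp2 and Serpina1e were higher and Cyp2d9 was lower. Cyp2d9 was at 251, 286 and 221 CPM in WT TCDD and 18.3, 32.1 and 25.4 CPM in dHep TCDD (log2 -3.32 ± 0.57, adjusted p = 0.00453), with other genes over 19.4% of its span. Selenbp2 was called only without dHep TCDD 10 and Serpina1e only without dHep TCDD 16, among the 6 fits with 1 library left out. Among the major urinary proteins, pheromone carriers that are near copies of each other, Mup3 was higher (log2 4.11 ± 0.66, adjusted p = 0.00258) and Mup17 lower (-3.52 ± 0.84, adjusted p = 0.0394), and the median of 19 was -0.86. Mup17 held its call only without WT TCDD 2, with adjusted p from 0.0966 to 0.179 otherwise. Its dHep TCDD livers, at 20.7 to 37.2 CPM, and its WT TCDD livers, at 131 to 525 CPM, were all below every vehicle liver (608 CPM and more).

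Growth hormone drives much of the sex bias of liver through STAT5. Of 16 genes of that pathway 3 were higher in dHep (0.822% of all genes were), with a median of 0.84: Ghr, the growth hormone receptor (log2 1.13 ± 0.27, adjusted p = 0.0394), Socs2, a feedback inhibitor (2.01 ± 0.49, adjusted p = 0.0468), and Egfr, a growth factor receptor gene (1.52 ± 0.35, adjusted p = 0.0342). These calls were fragile: Ghr and Socs2 lost theirs in all 6 fits with 1 library left out (adjusted p 0.067 to 0.198 and 0.0871 to 0.173), and Egfr held its call only without dHep TCDD 16. Igfbp2, an insulin-like growth factor binding protein gene, was at 47.9, 326 and 103 CPM in WT TCDD and 533, 1251 and 1613 CPM in dHep TCDD and missed the threshold (log2 2.83, adjusted p = 0.0667).

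Among other drug-metabolising cytochromes, 3 of 27 tested CYP2 genes were higher (Cyp2c69, Cyp2c23 and Cyp2g1, the last with log2 3.89 ± 0.53 and adjusted p = 0.000756) and Cyp2d9 was lower, with a median of 0.39. Cyp2c23 lost its call without WT TCDD 2 (adjusted p = 0.0513) and without WT TCDD 14 (0.0529). Of 8 CYP3A genes only Cyp3a59 was called (log2 1.89 ± 0.33, adjusted p = 0.00458), with a median of 1.54 over the list. The female-specific Cyp3a16 and Cyp3a41a differed by 6.57 and 5.14 on the log2 scale but varied widely within dHep TCDD, from 75.9 CPM in mouse 4 to 1.29 in mouse 16 for Cyp3a16, and were not called (adjusted p = 0.0832 and 0.164).

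In lipid and bile acid metabolism few genes were called. Fads1, the delta-5 fatty acid desaturase, was at 191, 139 and 114 CPM in WT TCDD and 667, 800.0 and 461 CPM in dHep TCDD (log2 2.12 ± 0.38, adjusted p = 0.00538), and lost its call only without WT TCDD 14 (0.0503). Fasn, fatty acid synthase, was at 207, 218 and 134 CPM against 805, 491 and 666 CPM (log2 1.81 ± 0.43, adjusted p = 0.0395), and lost its call in all 6 fits with 1 library left out, at 0.0628 to 0.235. These were 2 of 20 genes of fatty acid and triglyceride synthesis, with a median of 0.79 and none lower. Groups did not overlap at 9 of the 20 with dHep higher (6.58% of all genes had) and at 1 with dHep lower (9.68%). An unadjusted p under 0.05 was found at 8, all higher (4.35% of all genes had), and DESeq2 called 4 higher. The summed list overlapped, at 4022.6 to 7745.6 CPM in WT TCDD and 7715.9 to 12764 CPM in dHep TCDD. Slco1a4, a bile acid and drug transporter, was higher (log2 1.68 ± 0.25, adjusted p = 0.00143), as was Cyp27a1, a sterol 27-hydroxylase (1.17 ± 0.24, adjusted p = 0.0133), 2 of 19 in their list. Cyp27a1 was called in 2 of the 6 fits with 1 library left out, without WT TCDD 2 and without dHep TCDD 16. Fgf21, a stress-responsive hormone of the liver that raises fat burning, was the only called gene of 21 in fatty acid oxidation. It was at 17.4, 11.8 and 48.2 CPM in WT TCDD and 0.649, 1.57 and 1.225 CPM in dHep TCDD (log2 -4.50 ± 0.80, adjusted p = 0.00523), every dHep TCDD liver being under every WT TCDD liver.

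Genes of the oxidative stress factor NRF2 were lower at 3 of 16 (1.12% of all genes were), with a median of -0.63: Nfe2l2, which encodes NRF2 (log2 -1.18 ± 0.28, adjusted p = 0.0379), Srxn1, a peroxiredoxin-repair enzyme (-1.61 ± 0.32, adjusted p = 0.0132), and the exporter gene Abcc4 (-1.84 ± 0.40, adjusted p = 0.0237). Of the 16 genes, 10 had groups that did not overlap, all lower in dHep (9.68% of all genes had). An unadjusted p under 0.05 was found at 8, all lower (5.49% of all genes had), and DESeq2 called 4 lower. The list summed to 2782.6 to 3015.6 CPM in WT TCDD and 1651.7 to 2231.4 CPM in dHep TCDD. Nfe2l2, Srxn1 and Abcc4 all lost their call without dHep TCDD 16, where adjusted p was 0.161, 0.0871 and 0.132. Nfe2l2 lost its call in all 6 such fits, Srxn1 also without WT TCDD 2 or 14 or dHep TCDD 10, and Abcc4 also without WT TCDD 2 or 14 or dHep TCDD 4. Gstp1, a glutathione transferase, was lower (-1.95 ± 0.40, adjusted p = 0.0138) and lost its call without dHep TCDD 16 (0.0791), without dHep TCDD 4 (0.0758), without dHep TCDD 10 (0.0602) and without WT TCDD 8 (0.0762). In the acute phase list the serum amyloid genes were lower and pentraxin Apcs higher, among 19 tested with a median of 0.16. Saa1 was at 744, 734 and 1276 CPM in WT TCDD and 127, 270.1 and 51.7 CPM in dHep TCDD (log2 -2.62 ± 0.60, adjusted p = 0.0331). Its neighbour and near copy Saa2 differed by -2.97 ± 0.63 (adjusted p = 0.019) and Apcs by 1.93 ± 0.40 (adjusted p = 0.0174). All 3 lost their call without dHep TCDD 16 (0.134, 0.0992 and 0.07), the mouse with the lowest Saa1 of the treated livers. Saa1 kept its call only without dHep TCDD 10, Saa2 lost it also without dHep TCDD 4 or WT TCDD 14, and Apcs also without WT TCDD 2 or 8 or dHep TCDD 10.

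The remaining hepatocyte lists held few calls. The Serpina1 cluster had 3 of 11 higher (Serpina7, Serpina12 and Serpina1e, median 0.93), and Serpina12 lost its call without WT TCDD 2 or 14. Lect2, a secreted hepatokine, was higher as 1 of 15 pericentral genes, and Cdh1, the epithelial cadherin E-cadherin, lower as 1 of 17 periportal genes (log2 -1.34 ± 0.29, adjusted p = 0.022), although the median of that list was 0.76. With dHep higher, 8 of the 17 had groups that did not overlap (6.58% of all genes had) and 8 an unadjusted p under 0.05 (4.35%). With dHep lower it was 1 in each case (9.68% and 5.49%). The periportal list summed to 8855.8 to 11348 CPM in WT TCDD and 15391 to 16834 CPM in dHep TCDD. Asns, asparagine synthetase, was lower as 1 of 19 stress response genes (-3.52 ± 0.83, adjusted p = 0.038). With 1 library left out, Lect2 kept its call only without dHep TCDD 4 or WT TCDD 8, Cdh1 only without WT TCDD 2 or dHep TCDD 16, and Asns only without WT TCDD 8. Of 21 hepatocyte identity genes edgeR called none, 5 had an unadjusted p under 0.05, all higher in dHep (4.35% of all genes had), and DESeq2 called 1. The same 21 included 5 whose dHep TCDD livers all lay above all WT TCDD livers (6.58% of all genes did). Their median was 0.52, and their summed level was 58084 to 106910 CPM in WT TCDD and 94188 to 138410 CPM in dHep TCDD, which overlap. Apoa1, the main protein of HDL, missed the threshold narrowly (log2 2.39, adjusted p = 0.0539). In all, 23 of the 50 lists had no called gene. Of their 347 entries 21 had an unadjusted p under 0.05 with dHep higher and 28 with dHep lower, and DESeq2 called 6 and 5.

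**Figure D4:**
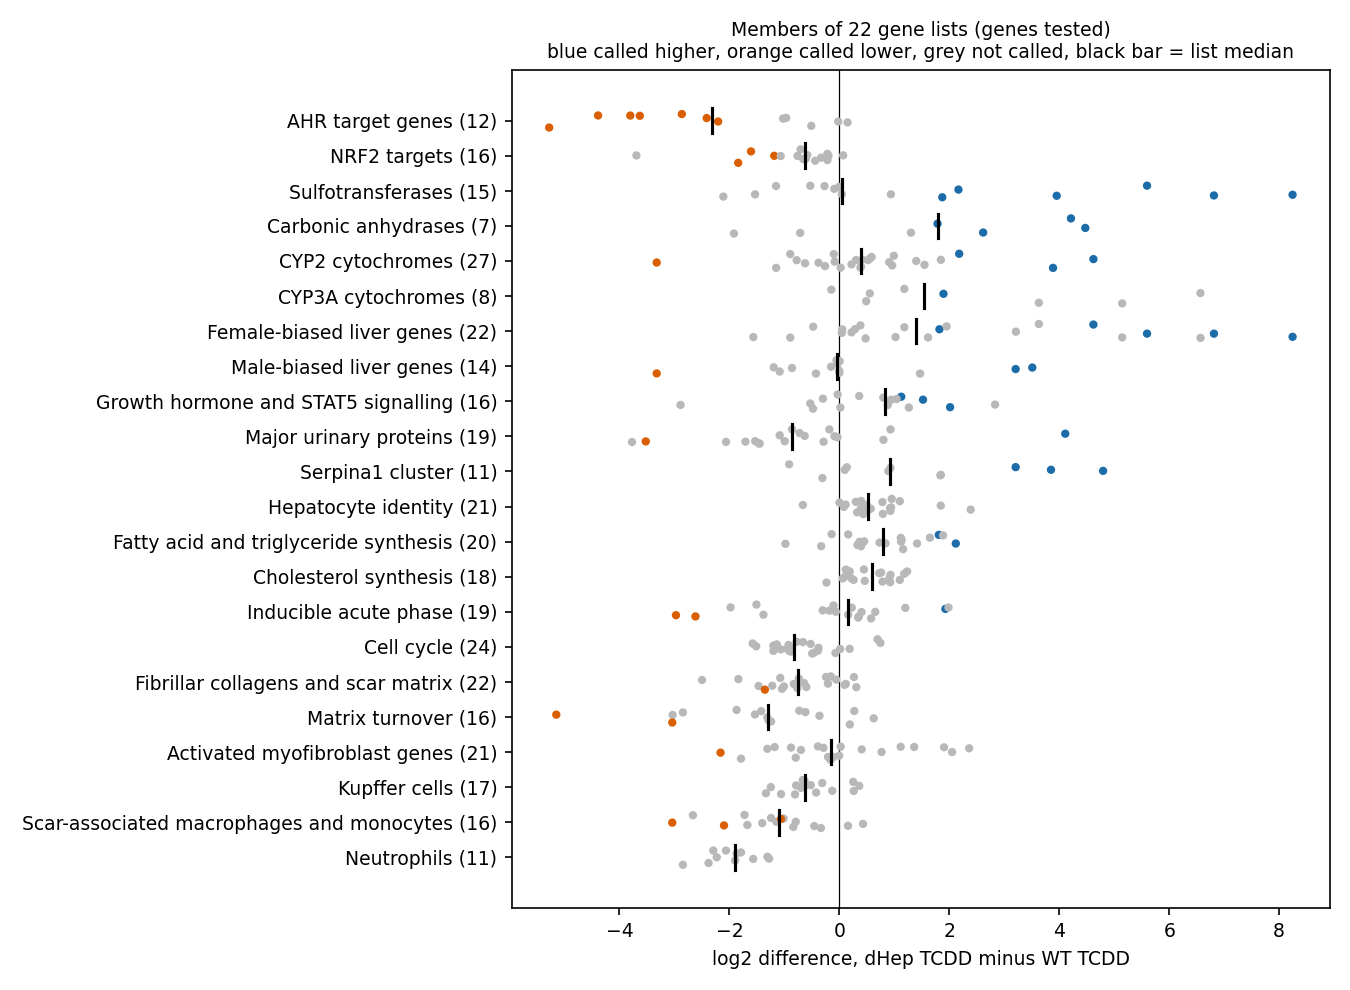
Each point is a tested gene of a list, at its log2 difference of dHep TCDD minus WT TCDD on the x axis, with the list and its number of tested genes on the y axis. Called genes are coloured and a bar marks the median of each list, lowest for the AHR targets at -2.31.

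The matrix and myofibroblast genes bear on the question in the title of the series, and here edgeR made few calls. Of 22 genes of fibrillar collagens and scar matrix 1 was lower in dHep TCDD, Postn, which encodes periostin, a matrix protein of scars. It was at 38.1, 33.7 and 31.3 CPM in WT TCDD and 13.3, 16.01 and 11.02 CPM in dHep TCDD (log2 -1.35 ± 0.32, adjusted p = 0.0365). Its call was lost in every fit that left out 1 treated library, at 0.0789 to 0.175. The 3 main scar collagens had negative differences that were not called. Col1a1 was at 84.0, 40.3 and 90.4 CPM against 27.4, 25.4 and 24.8 CPM (log2 -1.47 ± 0.52, adjusted p = 0.251). Col1a2 was at 98.6, 70.3 and 106 CPM against 33.7, 39.4 and 57.6 CPM (-1.07 ± 0.53, adjusted p = 0.551). In both genes the groups did not overlap, and WT TCDD 8 was the lowest of its group. Col3a1 (-1.01 ± 0.42, adjusted p = 0.387) overlapped between groups, by WT TCDD 8 at 88.4 CPM and dHep TCDD 16 at 89.8 CPM. The list had 6 genes with an unadjusted p under 0.05, all lower (5.49% of all genes had), and a median of -0.75. Groups did not overlap at 7 of the 22, all lower (9.68% of all genes had). The summed list overlapped, at 1634.7 to 2485.7 CPM in WT TCDD and 1736.1 to 2597.9 CPM in dHep TCDD. Col1a1 and Col1a2 are small parts of that sum.

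Of 21 genes of activated myofibroblasts Tgfb2, a growth factor of the TGF-beta family, was lower (17.95, 12.7 and 12.1 CPM against 4.33, 2.32 and 2.86 CPM). Its log2 difference was -2.16 ± 0.53 (adjusted p = 0.0468), and the call was lost in every fit with 1 treated library left out, at 0.0825 to 0.222, and with RLE scaling. The median of the list was -0.16. Acta2, the smooth muscle actin that defines these cells, was at 3.98, 4.39 and 9.26 CPM in WT TCDD and 13.8, 3.26 and 28.4 CPM in dHep TCDD (log2 1.36 ± 1.10, adjusted p = 0.911). It overlapped between groups and was highest in dHep TCDD 16. None of 14 genes of quiescent stellate cells was called by edgeR or DESeq2, and 2 had an unadjusted p under 0.05; Lrat and Tcf21 of that list had no count in any library.

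By edgeR, genes of matrix turnover were lower at 2 of 16 with a median of -1.30. DESeq2 called 6 lower and none higher. With dHep lower, 8 of the 16 had groups that did not overlap (9.68% of all genes had) and 8 an unadjusted p under 0.05 (5.49%). With dHep higher it was 1 in each case (6.58% and 4.35%). Mmp12, a metalloelastase of macrophages, was at 19.8, 6.26 and 18.6 CPM in WT TCDD and 1.64, 2.01 and 1.77 CPM in dHep TCDD (log2 -3.04 ± 0.58, adjusted p = 0.00871). All WT TCDD livers were above all dHep TCDD livers. Without dHep TCDD 16 neither of the 2 genes was called, and Mmp12 had an adjusted p of 0.0512 there and of 0.0619 without dHep TCDD 4. Mmp8 (log2 -2.84, adjusted p = 0.0843), Mmp7 (-3.03, adjusted p = 0.233) and Mmp13 (-1.31, adjusted p = 0.182) were not called. Timp1 had no count in any library. In the basement membrane list Col4a3 was lower as 1 of 16 (-5.26 ± 1.06, adjusted p = 0.0133), at 10.6 and 11.6 CPM in WT TCDD 2 and 14, 0.683 in WT TCDD 8 and 0.0866 to 0.377 in dHep TCDD. It lost its call without dHep TCDD 4 (0.0908) and without dHep TCDD 16 (0.0741).

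Among lists of inflammatory cells edgeR made few calls. Of 16 genes of scar-associated macrophages and monocytes 3 were lower, with a median of -1.10: Mmp12, Trem2, a lipid receptor of such macrophages (log2 -2.10 ± 0.52, adjusted p = 0.0484), and Plac8 (-1.06 ± 0.26, adjusted p = 0.047). Trem2 was called in only 2 of the 6 fits with 1 library left out, without dHep TCDD 16 and without WT TCDD 8, and Plac8 only without dHep TCDD 16. Both also lost their call with RLE scaling, without the filter on low counts and in the fit of the 6 libraries alone. Of the 16 genes of their list, 8 had groups that did not overlap, all lower in dHep (9.68% of all genes had). An unadjusted p under 0.05 was found at 8, all lower (5.49% of all genes had), and DESeq2 called 6 lower. The list summed to 604.41 to 761.67 CPM in WT TCDD and 284.28 to 603.14 in dHep TCDD, where mouse 16 was the highest. Clec7a (-1.72, adjusted p = 0.0832), Ccr2 (-1.67, adjusted p = 0.0898) and Gpnmb (-1.40, adjusted p = 0.796) were not called. Among signals, the eosinophil chemokine Ccl24 (-2.23 ± 0.46, adjusted p = 0.0164) and the interleukin-1 antagonist gene Il1rn (-2.02 ± 0.41, adjusted p = 0.0145) were lower, 1 of 18 chemokines and 1 of 15 cytokine and adhesion genes. Ccl24 lost its call without dHep TCDD 4 or 10 or WT TCDD 14 (0.0841 to 0.1), and Il1rn without WT TCDD 2 or 14 or dHep TCDD 4 or 10 (0.0547 to 0.0847).

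No neutrophil gene of 11 tested was called by edgeR, although 7 had an unadjusted p under 0.05 and DESeq2 called 3, all lower in dHep. The median was -1.90, and 8 of the 11 had groups that did not overlap, all lower (9.68% of all genes had). S100a8 was at 21.3, 27.4 and 28.7 CPM in WT TCDD and 2.90, 3.33 and 10.3 CPM in dHep TCDD (log2 -2.23 ± 0.94, adjusted p = 0.404), the highest dHep TCDD liver being mouse 16. The summed list was 101.43 to 121.21 CPM in WT TCDD, 18.519 to 41.915 in dHep TCDD and 3.5867 to 28.253 in vehicle livers. In the fit without the 5 libraries that stand apart, 4 of the 11 were called lower. Ly6g, Mpo and Elane had too few counts to be tested. Of 17 Kupffer cell genes (median -0.63), 9 genes of B and plasma cells (-1.18), 16 of T and NK cells (0.04) and 18 of liver endothelium (-0.17), neither edgeR nor DESeq2 called any, and 2, 3, 0 and 1 had an unadjusted p under 0.05. All dHep TCDD livers were below all WT TCDD livers at 9 of the 17 Kupffer cell genes and 6 of the 9 genes of B and plasma cells (9.68% of all genes). The Kupffer list summed to 1247.7 to 1499.0 CPM in WT TCDD and 894.18 to 1184.4 in dHep TCDD, while the B and plasma cell list overlapped, at 199.78 to 282.68 and 276.94 to 516.32 CPM. The part of other cell types in the differences above was not tested.

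**Figure D5:**
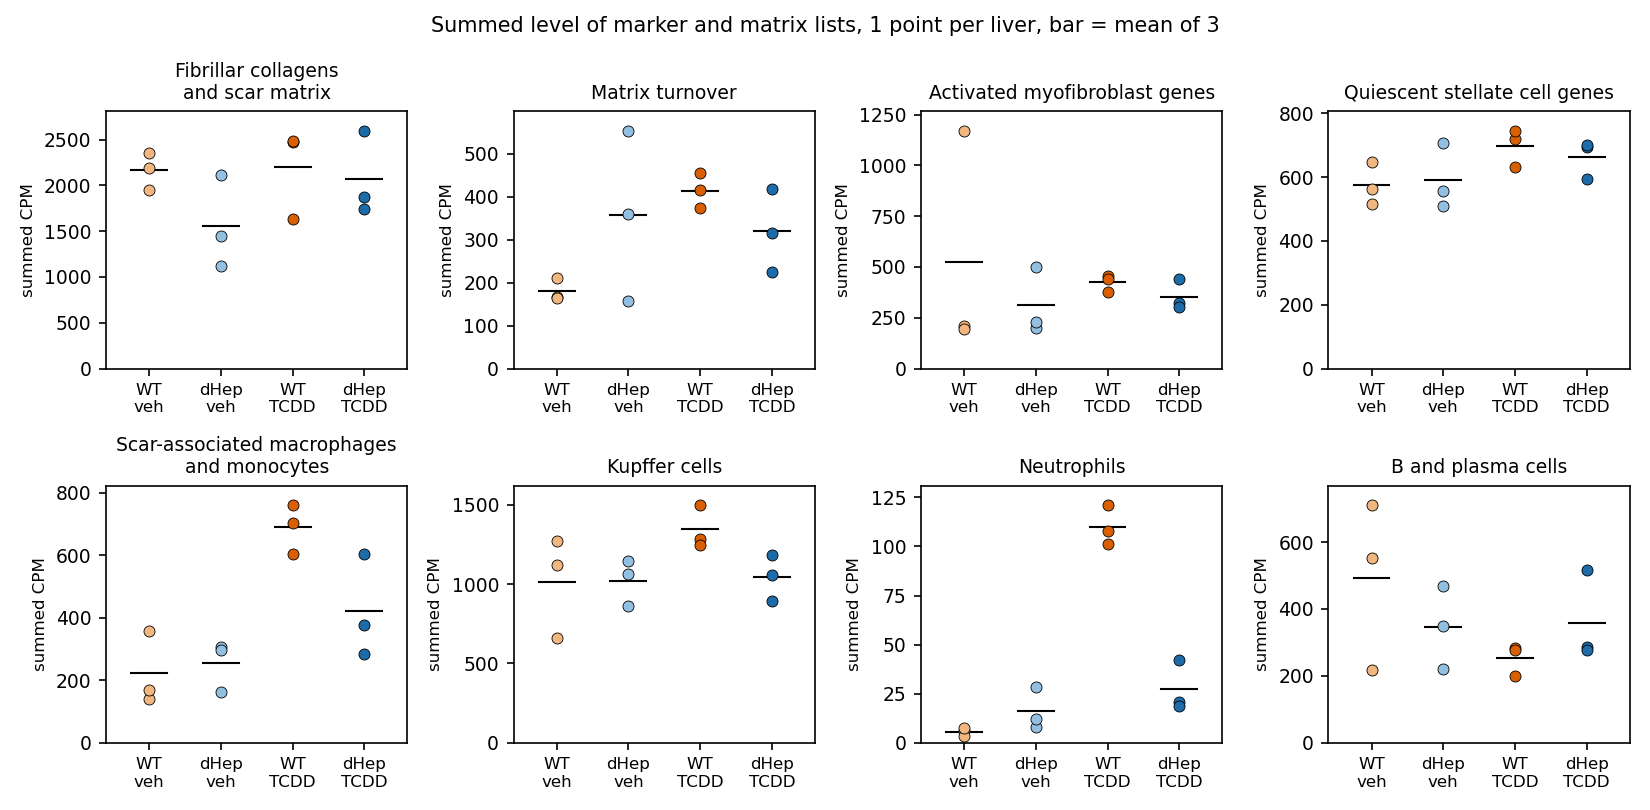
The summed level (CPM, from 0) of marker and matrix lists is shown by group, 1 point per liver with a bar at the mean of 3. For neutrophil genes the 3 WT TCDD livers lie above all other WT and dHep livers. The summed level of the list of fibrillar collagens and scar matrix overlaps between all 4 groups. Col1a1 and Col1a2 are small parts of that sum.

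Without TCDD the genotypes gave few calls. Between dHep and WT vehicle livers edgeR called none of the 14835 genes (0.0%), 1025 had an unadjusted p under 0.05 (6.91%), and DESeq2 called 5 (0.0337%). Of those 5, Ahrr (DESeq2 log2 difference 2.72) and Cyp1b1 (2.56) were higher in dHep without TCDD, the direction opposite to that under TCDD, and so was Apol7c (3.23). The muscle gene Pgam2 was lower (-5.15), beside the muscle RNA of WT vehicle 1, whose part in it was not tested. The fifth was a predicted gene. Cyp1a1 was at 78.9, 86.9 and 25.9 CPM in dHep vehicle and 33.2, 5.04 and 8.04 CPM in WT vehicle and overlapped. Cyp1a2 differed in the other direction, lower in dHep as under TCDD, and was not called (edgeR log2 difference -1.73, unadjusted p = 0.005, adjusted p = 0.623). It was at 256, 344 and 473 CPM in dHep vehicle and 1841, 1465 and 260 CPM in WT vehicle and overlapped as well. The dHep vehicle livers 9 and 15 are among the 5 libraries that stand apart. Of the genes called higher in dHep under TCDD 11 of 122, and of those called lower 24 of 166, had an unadjusted p under 0.05 in vehicle livers, with median vehicle log2 differences of 0.03 and 0.15. The genotype difference under TCDD minus that under vehicle was called at 127 genes (0.856%), with 52 higher (0.351%) and 75 lower (0.506%). It was called at 49 of the 122 genes and 66 of the 166, with the TCDD libraries shared between these tests. Hao1 (interaction log2 9.39, adjusted p = 8.3e-05) and Col9a2 (-12.32, adjusted p = 8.3e-05) had the smallest adjusted p among the named genes. For Col9a2 the vehicle part of that value (log2 3.12) rests on 2 counts over the WT vehicle livers and 20 over the dHep vehicle livers.

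Set against the 6 vehicle livers, most called genes were away from them in WT TCDD livers and among them in dHep TCDD livers. Of the 166 genes lower in dHep, 142 had all WT TCDD livers above all vehicle livers while dHep TCDD livers overlapped them, a position held by 6.09% of all genes. Of the 122 higher, 116 had WT TCDD below and dHep TCDD overlapping (5.12% of all genes). Since the called genes were chosen for their difference under TCDD, these shares describe them and are no test. The exceptions included 12 genes where dHep TCDD livers were also all above vehicle, among them Cyp1a1, Cyp1b1, Ahrr, Tiparp, Gsta1, Ttc39a, Tgfb2, Mmp12, Tnfrsf19, Chil1 and Gm19619. In 3 genes dHep TCDD livers alone were above vehicle or were above it while WT TCDD livers were below. These were H2-Q1, a class I antigen gene (13.1, 2.05 and 10.4 CPM in WT TCDD, 97.8, 53.9 and 83.2 CPM in dHep TCDD, at most 32.4 CPM in vehicle), Endod1 and Tmem98.

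The dHSC mice give a readout of the same genes in livers of other mice. Their libraries are not in either group compared, but all 18 libraries share the filter and the estimate of spread in the fit. Fitted on the 6 compared libraries alone, 97 of the 122 genes and 131 of the 166 were called. There TCDD was set against vehicle in livers whose hepatocytes keep AHR. Of the 166 genes lower in dHep TCDD, 114 were called higher with TCDD in dHSC livers (1.71% of all genes were) and 2 lower. Their median log2 response was 2.50, and 158 of the 166 were above 0 (49.7% of all genes were). Of the 122 higher in dHep TCDD, 76 were called lower with TCDD in dHSC livers (0.843% of all genes were) and none higher. Their median was -1.96, and 121 of the 122 were below 0 (50.3% of all genes were). Without the 5 libraries that stand apart, a setting chosen after seeing the data, the counts were 81 and 45, with none in the other direction. Col9a2 was at 153, 117 and 222 CPM in dHSC TCDD and at most 0.0703 CPM in dHSC vehicle, and Hao1 was at most 0.346 CPM in dHSC TCDD and 107 to 154 CPM in dHSC vehicle. Postn was at 12.2, 14.1 and 7.59 CPM in dHSC TCDD and 15.8, 13.8 and 10.3 CPM in dHSC vehicle, so the groups overlapped there. The dHep TCDD and dHSC TCDD livers were not compared with each other.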

How the data were processed

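RNA of whole liver was measured in 18 female mice, 1 library each. Per the labels' protocols, mRNA was taken with poly-T beads from 10 mg of tissue with RIN above 6.8 and made into libraries with a NEBNext Ultra kit. The deposited values are raw read counts per Ensembl gene. The submitters' processing notes name FastQC 0.11.9, HISAT2 2.1.0, HTSeq 0.11.3, DESeq2 1.22.2 and GRCm38, and the counting settings are not given in the sources used here. With no strand setting known, overlapping and antisense genes can lose or share reads, and near copies can share them. Gene names and coordinates come from GENCODE M21 on GRCm38, which named 55450 of 55536 IDs.

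From the deposited counts, edgeR 4.0.16 in R 4.3.3 was fitted to all 18 libraries and 6 groups (TMM scaling, filterByExpr, quasi-likelihood test). The fit had 12 residual degrees of freedom over 14835 genes, and p-values had Benjamini-Hochberg adjustment over all of them. "Called" means an adjusted p under 0.05. Every adjusted p is from this test unless DESeq2 1.42.0 is named, and log2 differences are likewise edgeR's estimates, dHep minus WT. The standard error (SE) was computed here as the absolute log2 difference divided by the square root of the test's F statistic. For genes with few or no counts in a group it is approximate. Levels are CPM computed here. Total counts of all 18 libraries ran from 12706490 to 27240877. The biological coefficient of variation was 44.8%. On simulated counts with this design the test called 10% of genes changed by 2-fold, 68% by 4-fold, 90% by 8-fold and 94% by 16-fold, of 50 genes each.

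Named by rule were the 15 largest differences each way among genes that were called, averaged 1 CPM or more over the treated livers, had no predicted-gene name and had groups that do not overlap, with Ahr, every tested AHR target and up to 4 called genes of each of 50 lists. Other genes were named after their values were seen, and some that meet the rule are not reported here. The comparison, the 849 genes of the lists and the tests were chosen with earlier results of these data known. For genes with no count in a group, folds use a floor of 3 counts over the group, and with 1 to 3 counts the ratio has a 95% interval that covers counting error only. Alternatives were RLE scaling, other filters, a fit of the groups compared only, DESeq2, a 2-fold test, leaving out each treated library and leaving out the 5 libraries that stand apart. Added after seeing the data were the dHSC readout without those 5 and list counts without dHep TCDD 16.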

Additional observations from a re-analysis of the deposited data

Results flagged for a closer look

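For 37 of the 84 genes named by rule the genotype difference under TCDD differed from that under vehicle (0.856% of all genes did). The test was the interaction term in edgeR (quasi-likelihood test, p adjusted by Benjamini-Hochberg). Most of these genes were named for their difference in the same TCDD libraries, so this share describes them and is no test. The interaction was not refitted without dHep vehicle 9 and 15, which stand apart. Each value below is the log2 difference of dHep minus WT under TCDD less the same difference in vehicle livers. Of the 37, 22 were positive and 15 negative. Among sulfotransferases it was positive for Sult3a2 (8.781, adjusted p = 0.0179), Sult3a1 (7.56, adjusted p = 0.0224), Sult2a7 (6.282, adjusted p = 0.00513), Sult2a8 (3.87, adjusted p = 0.00191) and Sult1a1 (2.393, adjusted p = 0.0144). Carbonic anhydrases with a positive value were Car3 (4.577, adjusted p = 0.00398), Car1 (4.154, adjusted p = 0.00936), Car14 (3.064, adjusted p = 0.019) and Car8 (2.027, adjusted p = 0.0394). Other liver enzymes and secreted proteins with a positive value were Hao1 (9.392, adjusted p = 8.3e-05), Cyp2c69 (5.379, adjusted p = 0.00845), Cyp2g1 (4.833, adjusted p = 0.00314), Serpina7 (4.16, adjusted p = 0.0309), Serpina1e (5.34, adjusted p = 0.0159), Mup3 (4.433, adjusted p = 0.0215) and Fads1 (2.53, adjusted p = 0.0303). The remaining positive values were those of Mmd2 (5.288, adjusted p = 0.00805), Ube2u (4.927, adjusted p = 0.0449), Ntrk2 (4.244, adjusted p = 0.0449), Dsg1c (5.814, adjusted p = 0.0115), Susd4 (5.026, adjusted p = 0.00932) and Nxph1 (4.488, adjusted p = 0.027). It was negative for the AHR targets Cyp1a1 (-6.437, adjusted p = 0.00582), Cyp1a2 (-3.545, adjusted p = 0.0353), Cyp1b1 (-6.326, adjusted p = 0.00156), Ahrr (-6.278, adjusted p = 0.000932), Tiparp (-2.668, adjusted p = 0.0131), Nqo1 (-2.389, adjusted p = 0.017) and Gsta1 (-3.198, adjusted p = 0.035). Negative values were also found for Pnliprp1 (-14.65, adjusted p = 0.00105), Col9a2 (-12.32, adjusted p = 8.3e-05), Nptx1 (-9.323, adjusted p = 0.00012), Insl6 (-6.036, adjusted p = 0.0122), Gipc2 (-7.726, adjusted p = 0.0026), Slc6a19 (-5.819, adjusted p = 0.0352), Fgf21 (-5.281, adjusted p = 0.0309) and Col4a3 (-7.347, adjusted p = 0.021). Pnliprp1 has no count in dHep TCDD, so its value depends on the prior count of the fit and is no bound. The vehicle part of the Col9a2 value rests on few counts, 2 over the WT vehicle livers and 20 over the dHep vehicle livers. The groups have 3 livers each, too few for a test of single libraries within a group.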

How the results depend on the processing

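The count of 288 genes called between dHep TCDD and WT TCDD (122 higher, 166 lower) stayed within 1.5-fold with RLE scaling (283), no filter (288), a filter of 1 CPM in 3 libraries (296), a fit of the 6 libraries alone (316) and without the 5 libraries that stand apart (372). DESeq2 called 587 (270 higher, 317 lower). Against a change of 2-fold, edgeR called 108 (40 higher, 68 lower), fewer by the construction of that test. Leaving out 1 treated library gave 159 to 215 in all, 56 to 89 higher and 82 to 126 lower, each with fewer samples. Between dHep and WT vehicle livers edgeR called none under any scaling, filter or fit tried, and DESeq2 called 5. The genotype difference under TCDD minus that under vehicle was called at 127 genes, at 108 to 134 with the other edgeR settings and at 296 with DESeq2. The cause of the DESeq2 differences was not tested. Of the 78 named genes that were called, 36 were called under every alternative and 40 under all but the 2-fold test, and none of the 78 reversed its direction. The median log2 difference over all genes was -0.03 and 0.00 with RLE scaling. No paired analysis was made, because each mouse number belongs to a single group and no label ties mice of different groups together. With 3 livers a group, differences near 2-fold are mostly not detectable.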

Other observations

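Some of the best separated genes belong to none of the lists. They were chosen after their values were seen, among genes called in every fit that left out 1 treated library. Marveld3 (chromosome 8, 109947914 to 109962203), which encodes a tight junction protein, was at 24.2, 31.8 and 25.7 CPM in WT TCDD 2, 8 and 14 and at 1.69, 1.76 and 1.70 CPM in dHep TCDD 4, 10 and 16. Its log2 difference was -3.98 ± 0.34 (edgeR adjusted p = 1.69e-05), and the dHep TCDD livers were within the vehicle range of 0.861 to 3.03 CPM. Trpv4, a calcium channel of the cell surface, was at 41.2, 31.7 and 47.9 CPM against 1.30, 1.13 and 1.84 CPM (-4.82 ± 0.55, adjusted p = 0.000193). St14, a membrane serine protease of epithelia also called matriptase, was lower (-3.57 ± 0.66, adjusted p = 0.00679), as were the mitochondrial carrier gene Ucp2 (-2.10 ± 0.31, adjusted p = 0.00143) and Mfge8 (-2.16 ± 0.33, adjusted p = 0.00177), whose product bridges dying cells to phagocytes. Selenbp1 and Htatip2 were abundant genes lower by 2.06 and 2.60 on the log2 scale, with all 3 WT TCDD livers above all 3 dHep TCDD livers.

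In the higher direction Ces3a, a carboxylesterase of the liver, was at 509, 786 and 719.9 CPM in dHep TCDD and 29.7, 83.8 and 33.3 CPM in WT TCDD (3.78 ± 0.50, adjusted p = 0.000611). Several called genes with differences in 1 direction lay side by side, within 200 kb: Sult3a2 and Sult3a1, Sult2a8 and Sult2a7, Car1 and Car3, Cyp1a2 and Cyp1a1, Saa1 and Saa2, and Duoxa1 and Duox1. The share of neighbours expected among called genes was not tested, and near copies among them can share reads.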
